A study of Arabidopsis thaliana with 18 samples.

Results

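A group of 118 genes, 0.829% of the 14229 genes measured, was at least 1.8 times higher with NaCl than without it in Arabidopsis thaliana seedlings, whichever of 3 pretreatments the seedlings had received. The genes were chosen from the deposited normalized counts: the mean of the 3 NaCl libraries was divided by the mean of the 3 libraries without NaCl, and the ratio had to reach 1.8 after DPAM-1, after coronatine and in DMSO. These 3 ratios chose the genes, so every NaCl effect given for them is a description and carries no test. The 3 genes nearest above the threshold, by their lowest ratio, were PSK2 at 1.81 and AT1G75580 and AT1G17830 at 1.82 each. The 3 nearest below it were AT5G64250 at 1.798, the raffinose synthase gene SIP1 at 1.79 and SQP1 at 1.79.

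Whole wild-type Col-0 seedlings were grown in liquid medium in 6 groups of 3 libraries: 5 µM DPAM-1 with 100 mM NaCl, 5 µM DPAM-1 alone, 5 µM coronatine with 100 mM NaCl, 5 µM coronatine alone, 1% DMSO with 100 mM NaCl, and 1% DMSO alone. Compounds were given on day 4 after germination, NaCl 16 h later, and tissue was taken after 2 h of NaCl. Coronatine is a bacterial toxin that mimics the active jasmonate of plants, and DPAM-1 is a compound known here by its code name alone. The sources give no mock addition and no harvest time for the groups without NaCl, and no solvent for the compound groups. NaCl effects and effects of handling or time thus cannot be told apart, nor can compound and solvent. The sources also do not say whether the 3 libraries of a group came from separate cultures, so that p-values measure only the spread between these libraries, which may be technical.

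Salt and drying raise the hormone abscisic acid in plants. The hormone binds PYR and PYL receptors, which then block a family of protein phosphatases 2C, so that SnRK2 kinases are freed to activate bZIP factors that bind abscisic acid response elements in promoters. A parallel route runs through DREB factors and the dehydration response element, and both lead to hydrophilic protective proteins such as dehydrins and late embryogenesis abundant (LEA) proteins.

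The 18 libraries held 13638981 to 37279056 reads over the 14229 genes of the table, and the table holds no gene with fewer than 30 reads in any library. Whether it was cut on low counts before deposit is not given in the sources used here, and genes with fewer reads were not analysed here. The 10 shoot markers looked up were all in the table, and 11 of 12 root markers were, none of them at 0 in any library. Summed over the 11 root markers, normalized counts ran from 93454 to 107856 in the coronatine libraries, from 43968 to 48101 in the DPAM-1 libraries and from 41389 to 48650 in the DMSO libraries. Without PYK10, a beta-glucosidase of root ER bodies, the other 10 root markers summed to 4712 to 6135 after coronatine, 5513 to 7277 after DPAM-1 and 5256 to 7331 in DMSO. Libraries of a group were not level for the genes described here. Replicate 1 of the DPAM-1 group with NaCl was the highest of its 3 for 68 of the 118 (31.6% of all genes), replicate 2 of DPAM-1 alone for 71 (34.0%), replicate 1 of coronatine with NaCl for 72 (35.4%), and replicate 3 of DMSO with NaCl for 84 (35.8%). Without replicate 3 of DMSO with NaCl the rule chose 106 genes, of which 105 were among the 118. In whole seedlings, fewer cells of a type and less RNA per cell cannot be told apart.

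The median NaCl ratio of the 118 genes was 2.36 after DPAM-1, 2.74 after coronatine and 2.92 in DMSO, and the median of all genes was 1.00, 1.00 and 0.999 in the same order. Ratios ran from 1.81 to 13.4 after DPAM-1, from 1.82 to 32.7 after coronatine and from 1.84 to 14.5 in DMSO. All 3 NaCl libraries lay above all 3 without NaCl for 116 genes after DPAM-1, for 118 after coronatine and for 117 in DMSO. Of all genes, 16.4%, 22.3% and 16.4% did so. The exceptions were NAC019 and the methyltransferase gene FAMT after DPAM-1 and the remorin gene AT2G41870 in DMSO. In all 3 pretreatments together the libraries were separate for 115 genes, against 5.83% of all genes, which the choice of the genes sets in large part. Without replicate 3 of DMSO with NaCl, a setting added here after the data had been seen, the median in DMSO was 2.56. With all libraries, the highest of the 3 ratios was that of DMSO for 55 genes, of coronatine for 50 and of DPAM-1 for 13. These ratios chose the genes, and no share of all genes is given for this count. The count is also not given without replicate 3 of DMSO with NaCl. Leaving that library out took the genes with a lower ratio after DPAM-1 than in DMSO from 83 to 60. No order of the pretreatments is thus drawn from the count.

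**Figure D1:**
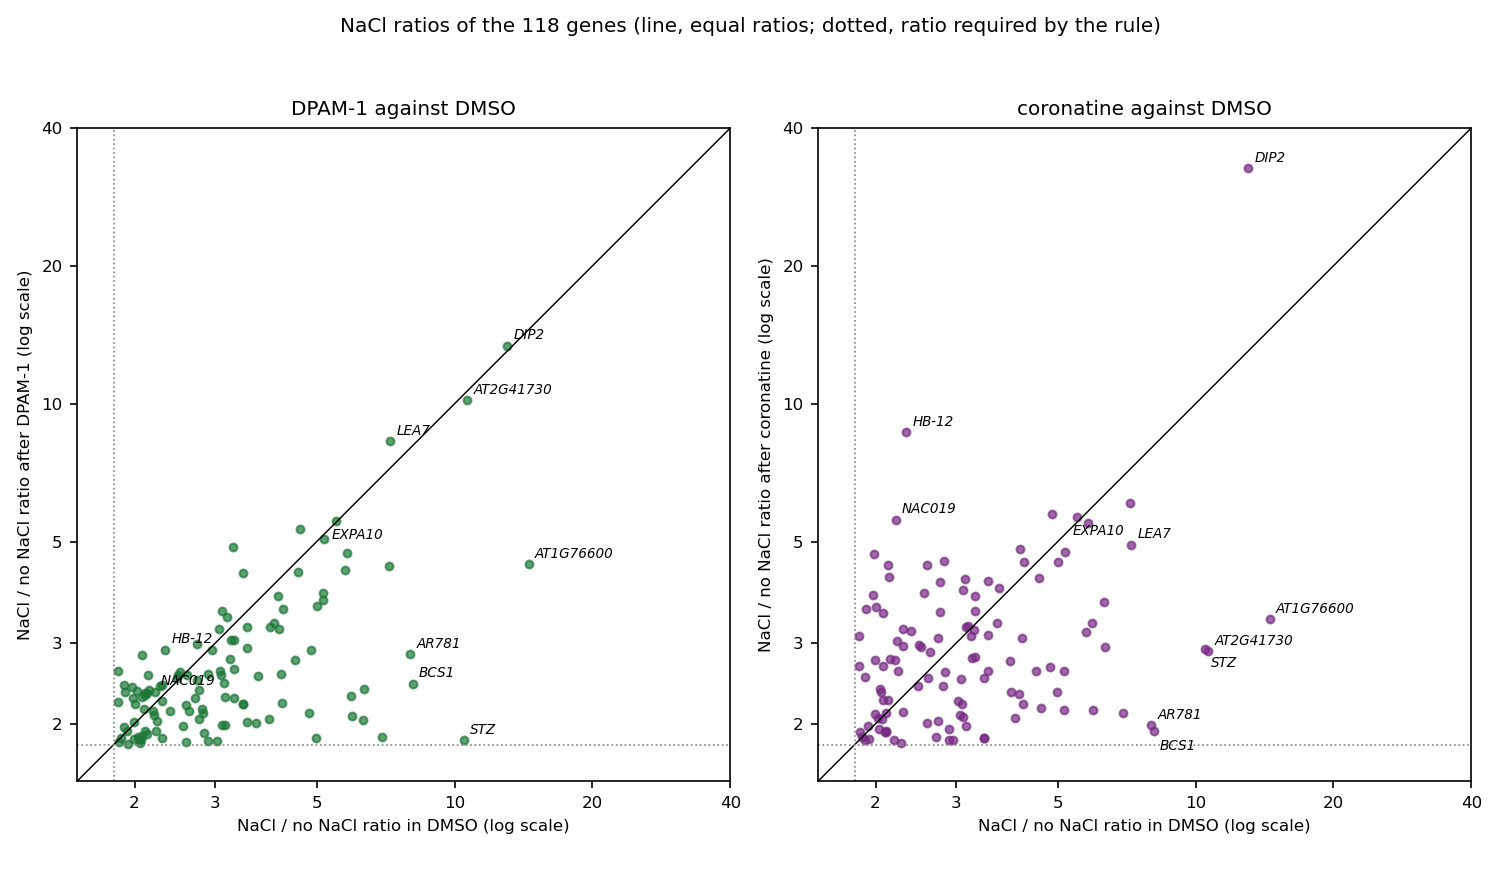
NaCl ratios of the 118 genes, as the mean normalized count with NaCl over that without, after DPAM-1 (left, vertical axis) and after coronatine (right, vertical axis) against the ratio in DMSO (horizontal axis), both on log scales. Each point is a gene; DIP2 stands highest after coronatine at 32.7, and AT1G76600, STZ, BCS1 and AR781 lie far below the line of equal ratios in both panels.

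To read the ratios in libraries that had no part in the choice, genes were chosen by the same rule from 2 replicate numbers and read in the remaining one. The rule chose 105 genes without the libraries numbered 1, and 80 of them (76.2%) reached 1.8 in all 3 pretreatments in the libraries numbered 1, as did 0.836% of all genes. It chose 135 genes without the libraries numbered 2, of which 53 (39.3%) reached 1.8 in those libraries, against 0.485% of all genes. It chose 93 genes without the libraries numbered 3, of which 72 (77.4%) reached 1.8 there, against 0.864% of all genes. Ratios in the libraries left out were above 1 in all 3 pretreatments for 105 of 105, 131 of 135 and 93 of 93 of these genes. Of all genes, 24.1%, 20.2% and 24.8% were above 1 in all 3 in the same libraries. The numbers do not pair libraries across groups, so each ratio set 1 library against 1 other.

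DIP2 (AT5G03210), annotated as an E3 ubiquitin ligase, had the highest geometric mean of the 3 ratios: 13.4 after DPAM-1, 32.7 after coronatine and 13.0 in DMSO. In DIP2, DPAM-1 libraries held 1811, 1231 and 1261 normalized counts with NaCl, against 113, 128 and 79.9 without NaCl. After coronatine, DIP2 held 4849, 3159.7 and 3223 with NaCl, against 139, 109 and 95.9 without NaCl. In DMSO, DIP2 stood at 648, 659 and 1329 with NaCl, against 74.0, 57.3 and 71.1 without NaCl. Every library with NaCl lay far above every library without it, and the coronatine libraries with NaCl were the highest of all groups. LEA7 (AT1G52690) encodes a LEA protein and reached 8.3 after DPAM-1, 4.93 after coronatine and 7.23 in DMSO. In LEA7, DPAM-1 libraries held 748, 453 and 498 normalized counts with NaCl, against 57.4, 93.0 and 54.3 without NaCl. After coronatine, LEA7 held 758, 604 and 618 with NaCl, against 164, 109.5 and 128 without NaCl. In DMSO, LEA7 stood at 357, 205 and 869 with NaCl, against 66.8, 62.3 and 69.0 without NaCl. In the DMSO group with NaCl, replicate 3 was more than 2 times each of the others, and the lowest of that group still lay above every DMSO library without NaCl. EXPA10 (AT1G26770), an expansin, one of the proteins that loosen cell walls, had ratios of 5.55, 5.67 and 5.51 after DPAM-1, after coronatine and in DMSO, the second narrowest spread of the 118. In EXPA10, DPAM-1 libraries held 4072, 5049 and 5259 normalized counts with NaCl, against 774, 1022 and 793 without NaCl. After coronatine, EXPA10 held 11194, 11718 and 12105 with NaCl, against 2215, 1889 and 2076 without NaCl. In DMSO, EXPA10 stood at 4492, 4262 and 7398 with NaCl, against 932, 925 and 1072 without NaCl. The coronatine libraries were the highest in both NaCl states. Only DIP2 and EXPA10 exceeded 5 in all 3 pretreatments, and 17 genes reached 3 in all of them.

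The promoters of 4 of the 118 genes are given because they hold the letters that abscisic acid-activated bZIP factors and DREB factors are known to bind, ACGTG and CCGAC, in different numbers. Each line is the 250 bases before the annotated start, read 5′ to 3′ on the gene's strand from RefSeq's TAIR10.1 genome, with ACGTG and CCGAC on either strand in capitals; the submitters' notes name TAIR10. The windows were at chr5:763481-763730, minus strand for DIP2, chr1:19619474-19619723, plus strand for LEA7, chr5:21240467-21240716, plus strand for LTI78 and chr3:11384146-11384395, minus strand for AFP3, and none overlapped another annotated gene.
DIP2: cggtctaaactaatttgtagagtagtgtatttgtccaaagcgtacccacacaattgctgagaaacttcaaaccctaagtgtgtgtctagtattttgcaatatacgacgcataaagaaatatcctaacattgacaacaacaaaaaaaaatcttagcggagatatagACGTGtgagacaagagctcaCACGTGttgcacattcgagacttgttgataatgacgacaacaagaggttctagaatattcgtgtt
LEA7: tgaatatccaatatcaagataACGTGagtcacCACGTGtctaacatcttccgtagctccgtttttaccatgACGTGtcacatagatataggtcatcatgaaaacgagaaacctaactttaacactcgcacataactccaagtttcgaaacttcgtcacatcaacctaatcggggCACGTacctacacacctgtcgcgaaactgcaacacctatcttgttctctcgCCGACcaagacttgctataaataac
LTI78: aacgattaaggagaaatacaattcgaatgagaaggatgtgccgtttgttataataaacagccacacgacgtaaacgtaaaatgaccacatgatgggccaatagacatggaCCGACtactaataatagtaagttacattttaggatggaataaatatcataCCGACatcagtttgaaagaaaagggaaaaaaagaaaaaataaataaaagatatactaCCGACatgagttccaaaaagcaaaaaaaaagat
AFP3: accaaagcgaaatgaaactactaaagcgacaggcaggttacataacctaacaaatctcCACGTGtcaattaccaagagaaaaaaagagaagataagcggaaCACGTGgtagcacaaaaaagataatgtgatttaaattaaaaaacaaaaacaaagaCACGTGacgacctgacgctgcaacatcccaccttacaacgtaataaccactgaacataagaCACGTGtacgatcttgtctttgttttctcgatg
In the DIP2 window a palindromic CACGTG, called a G-box, stands beside a further ACGTG. Within these 250 bases, LEA7 holds ACGTG and CCGAC, LTI78 only CCGAC, at 3 places, and AFP3 only CACGTG, with no CCGAC. Each window depends on the annotated start, and bases after that start were not read. A motif missing from a window may thus still be present in the promoter.

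Across the 117 genes that the annotation places, 57 (48.7%) held ACGTG in this window on either strand, against 24.0% of the 14103 genes of the table with a window. The G-box CACGTG, which contains ACGTG, was present in 26 (22.2%) of the 117, against 7.59% of all. CCGAC was present in 27 (23.1%), against 13.4% of all, and TTGAC, the core of the W-box bound by WRKY factors, in 65 (55.6%), against 44.1%. The calmodulin-binding activator core CGCGT stood in 12 (10.3%), against 7.35%, and the evening element AAATATCT also in 12 (10.3%), against 5.15%. The HD-Zip class I site CAATNATTG stood in 1 (0.855%), against 0.971%, and the GCC box AGCCGCC in 0, against 0.589%. Both strands were read for every motif. Mean G+C content was 32.0% in the windows of the 117 genes and 31.4% in all windows. In windows of 500 bases, a length added after the data had been seen, ACGTG stood in 58.1% of the 117 against 36.0% of all, and CCGAC in 34.2% against 23.5%. A match of letters is a description and not a binding site.

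**Figure D2:**
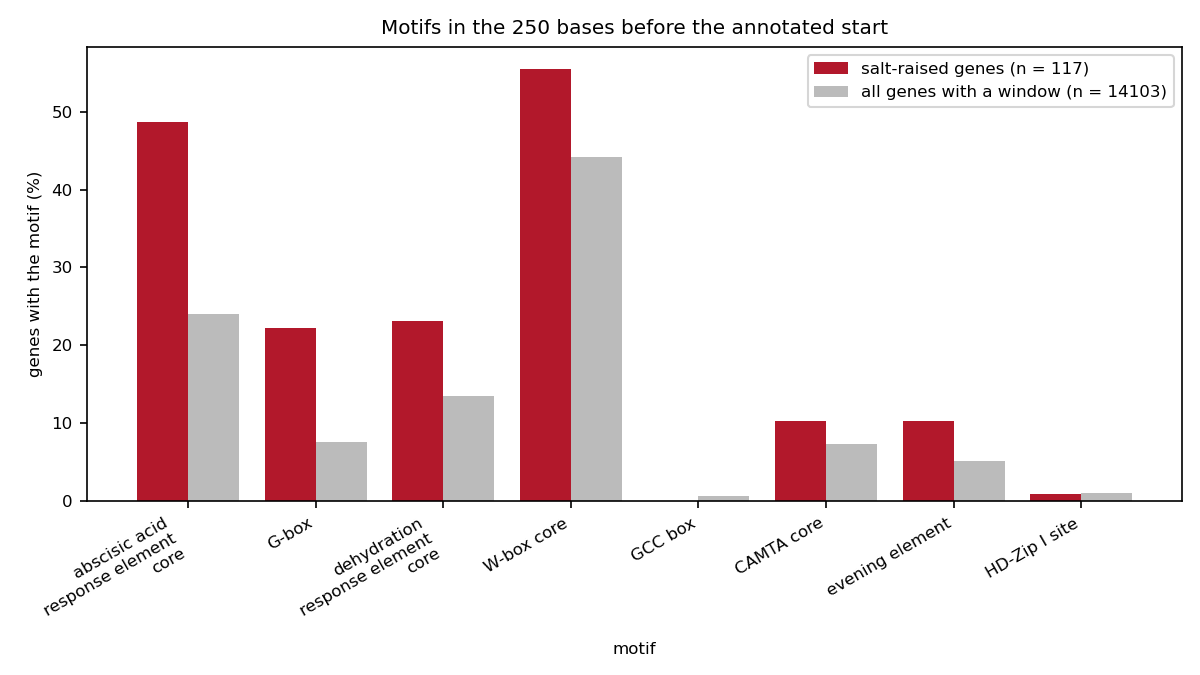
Share of genes whose 250 bases before the annotated start hold each motif on either strand (vertical axis, %), for the salt-raised genes (left bar, n = 117) and for all genes with a window (right bar, n = 14103). The abscisic acid response element core stood in 48.7% against 24.0%, and the G-box in 22.2% against 7.59%.

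Genes of the abscisic acid core pathway were among the 118 at several levels. Of 30 listed signalling genes 22 were in the table and 7 were members: the receptor gene PYL7, the phosphatase 2C genes ABI1, HAB1 and PP2CA, the bZIP factor gene ABF3, and AFP1 and AFP3, whose products bind the factor ABI5 and restrain the hormone's action. In edgeR's quasi-likelihood test at an adjusted p under 0.05 all 118 members were called higher with NaCl in each pretreatment, which their choice fixed, so NaCl calls are counted below over the listed genes that are not members. Of the other 15 signalling genes, 5 were called higher and 5 lower with NaCl after DPAM-1, 5 higher and 5 lower after coronatine, and 5 higher and 4 lower in DMSO. Over all genes, members included, the test called 6.92% higher and 5.33% lower with NaCl after DPAM-1, 14.7% and 12.1% after coronatine, and 9.8% and 7.88% in DMSO. Of 7 genes of abscisic acid synthesis and breakdown in the table, out of 14 listed, CYP707A1 was a member. It encodes a hydroxylase that inactivates the hormone, and its ratios were 2.27 after DPAM-1, 1.87 after coronatine and 2.72 in DMSO.

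AFP1 (AT1G69260) had the highest ratios of the abscisic acid genes. In AFP1, DPAM-1 libraries held 379, 312 and 281 normalized counts with NaCl, against 76.1, 65.0 and 51.2 without NaCl. After coronatine, AFP1 held 893, 798 and 745 with NaCl, against 185, 134 and 195 without NaCl. In DMSO, AFP1 stood at 195, 203 and 516 with NaCl, against 58.6, 49.4 and 68.0 without NaCl. The groups did not overlap in any pretreatment, and replicate 3 of the DMSO group with NaCl was more than 2 times each of the others. The phosphatase gene PP2CA (AT3G11410) had smaller ratios of 2.13, 3.18 and 2.39 after DPAM-1, after coronatine and in DMSO. In PP2CA, DPAM-1 libraries held 712, 453 and 534 normalized counts with NaCl, against 277, 258 and 261 without NaCl. After coronatine, PP2CA held 1043, 895 and 767 with NaCl, against 279, 279.9 and 290.5 without NaCl. In DMSO, PP2CA stood at 475, 388 and 760.4 with NaCl, against 199, 220.4 and 259.6 without NaCl. Libraries with and without NaCl were separate in each pretreatment, and the coronatine libraries with NaCl were the highest. ABF3 (AT4G34000) reached 2.25 after DPAM-1, 3.21 after coronatine and 2.29 in DMSO, and PYL7 (AT4G01026) had ratios of 2.02, 2.1 and 2.0 in the same order. ABI1 and HAB1 lay between 2.09 and 2.77 in all 3 pretreatments. AFP1, ABF3, ABI1 and PYL7 overlap a gene annotated on the opposite strand, as do LEA7, WRKY40, ATAF1, NAC102, GBF3, RHA3B and AT3G22620 among the other genes named, and the sources do not say whether counting used strand.

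**Figure D3:**
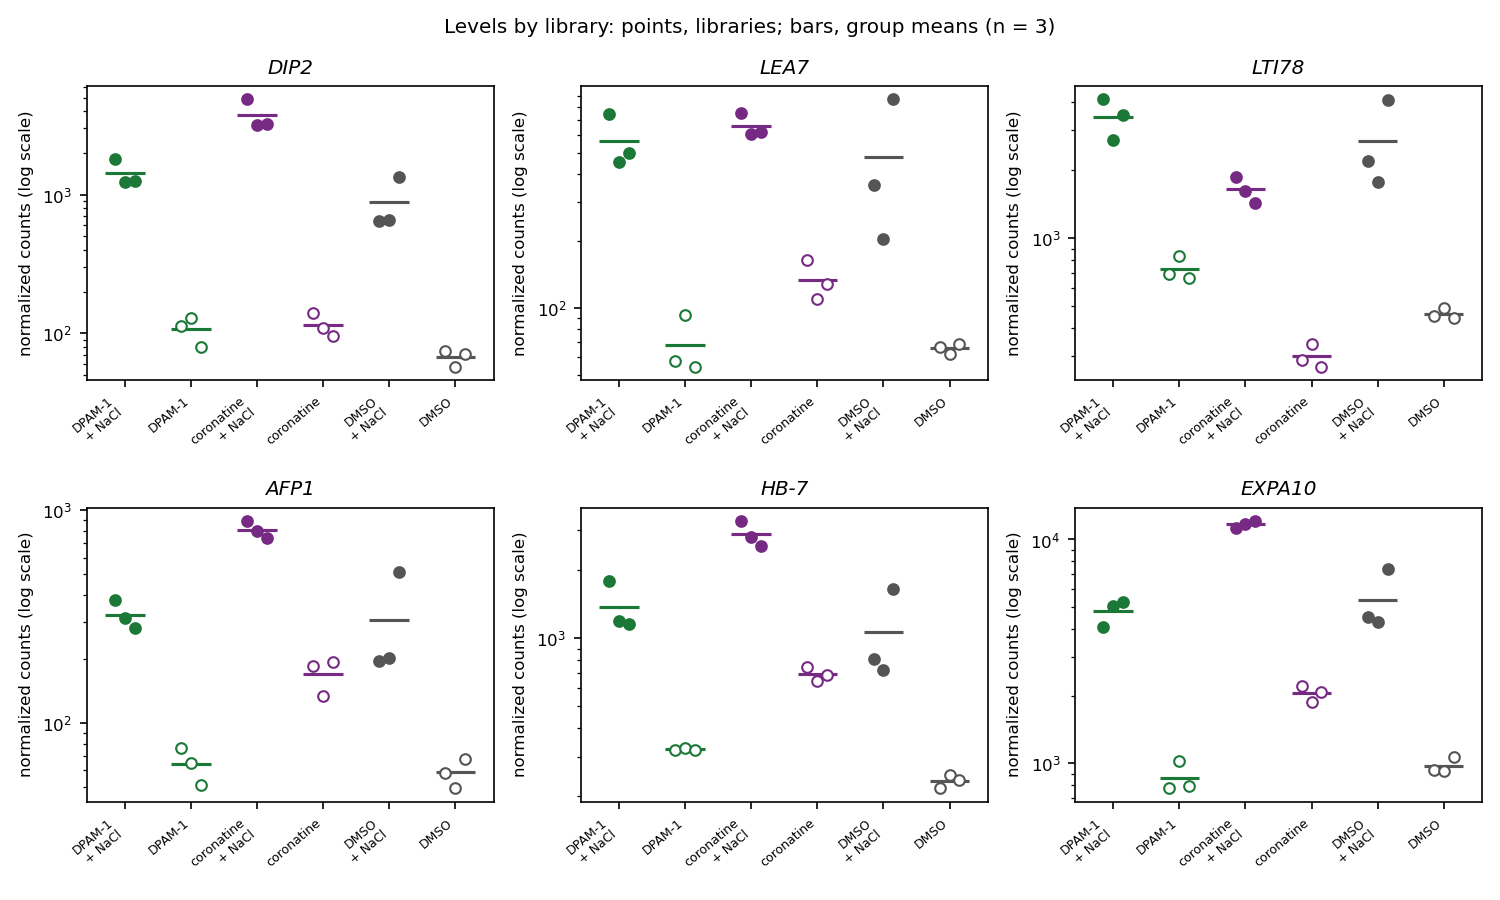
Normalized counts per library (vertical axis, log scale) of DIP2, LEA7, LTI78, AFP1, HB-7 and EXPA10 in the 6 groups; filled points are libraries with NaCl, open points libraries without, and bars are group means (n = 3). In each pretreatment the filled points lie above the open ones for all 6 genes.

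Among the lists drawn here, that of protective proteins had the largest share of members, 8 of 16, close to the NAC list with 5 of 11. The lists were drawn with earlier results of these data known, and the member LEA7 is not on this one. The order of the lists is thus not a result. Of 22 listed dehydrin, LEA and cold- or drought-regulated genes 16 were in the table and 8 were members: LTI78, LTI30, COR47, ERD10, COR15A, KIN1, KIN2 and the caleosin gene RD20. Of the other 8, 4 were called higher and 1 lower with NaCl after DPAM-1, 6 higher and 0 lower after coronatine, and 4 higher and 0 lower in DMSO. LTI78 (AT5G52310), also known as RD29A and long used as a reporter of drought and cold, had ratios of 4.71 after DPAM-1, 5.49 after coronatine and 5.82 in DMSO. In LTI78, DPAM-1 libraries held 4116, 2711 and 3514 normalized counts with NaCl, against 695, 836 and 665 without NaCl. After coronatine, LTI78 held 1871, 1624 and 1432 with NaCl, against 289, 339.7 and 269 without NaCl. In DMSO, LTI78 stood at 2200.4, 1768 and 4109 with NaCl, against 452, 490.1 and 445 without NaCl. Its coronatine libraries were the lowest of their NaCl state except that replicate 1 with NaCl (1871 normalized counts) lay above replicate 2 of DMSO with NaCl.

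COR47 (AT1G20440) and ERD10 (AT1G20450) encode acidic dehydrins and are neighbours in the genome. In COR47, DPAM-1 libraries held 8751, 6728 and 6840.4 normalized counts with NaCl, against 3767, 3827 and 4274 without NaCl. After coronatine, COR47 held 2556, 2418 and 2343 with NaCl, against 1073, 1147 and 1034 without NaCl. In DMSO, COR47 stood at 7354, 6007 and 9659 with NaCl, against 3823, 4043 and 3243 without NaCl. NaCl libraries lay above the others within each pretreatment, while the coronatine libraries with NaCl lay below every DMSO and DPAM-1 library without it. KIN2 (AT5G15970), a small cold- and salt-induced gene, stood the other way round in coronatine. In KIN2, DPAM-1 libraries held 7892, 7031 and 7189 normalized counts with NaCl, against 3145, 4093 and 3038 without NaCl. After coronatine, KIN2 held 25189, 24954 and 24717 with NaCl, against 14189, 12752 and 12072 without NaCl. In DMSO, KIN2 stood at 5312, 4707 and 6418 with NaCl, against 2835, 2565 and 2419.8 without NaCl. The coronatine libraries without NaCl were above every DPAM-1 and DMSO library with NaCl. KIN1 and KIN2 are adjacent and near-identical, so that reads may have been assigned to either. The other pairs of members next to each other were LSU1 and LSU3, AT1G76590 and AT1G76600, AT3G22600 and AT3G22620, and AT2G15960 and COR413-PM1, 6 pairs and 12 genes in all.

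Osmolyte genes were represented by P5CS1, the entry enzyme of proline synthesis from glutamate, and BAM1, a beta-amylase of starch breakdown, 2 of 13 in the table of 18 listed. Of the other 11, 5 were called higher and 1 lower with NaCl after DPAM-1, 6 and 1 after coronatine, and 4 and 1 in DMSO. P5CS1 (AT2G39800) had ratios of 2.56, 2.52 and 2.61, and BAM1 (AT3G23920) of 2.43, 2.95 and 2.3, each after DPAM-1, after coronatine and in DMSO. In P5CS1, DPAM-1 libraries held 691, 506 and 694 normalized counts with NaCl, against 205, 349 and 184 without NaCl. After coronatine, P5CS1 held 1005, 874 and 869 with NaCl, against 319, 289 and 482 without NaCl. In DMSO, P5CS1 stood at 523, 438 and 904 with NaCl, against 199, 198 and 318 without NaCl. The DMSO libraries with NaCl lay above those without, with replicate 3 highest in both states. P5CS1 overlaps a gene on the opposite strand.

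Transcription factor genes of the NAC family were 5 of the 11 in the table of 14 listed: ATAF1, RD26, NAC019, NAC032 and NAC102. Of the other 6, 3 were called higher with NaCl after DPAM-1, 5 after coronatine and 5 in DMSO, and 0 lower in each. RD26 (AT4G27410), an abscisic acid-induced activator, had ratios of 3.05 after DPAM-1, 3.79 after coronatine and 3.31 in DMSO. In RD26, DPAM-1 libraries held 959, 688 and 605 normalized counts with NaCl, against 208, 309 and 221 without NaCl. After coronatine, RD26 held 4395, 4019 and 3892 with NaCl, against 1156, 938 and 1149 without NaCl. In DMSO, RD26 stood at 545, 473 and 1175 with NaCl, against 222, 216 and 225 without NaCl. The libraries with coronatine alone, at 938 to 1156 normalized counts, overlapped the NaCl libraries of DPAM-1 and of DMSO. Of the HD-Zip, bZIP, MYB and heat shock factor list, 15 of 24 were in the table and 4 were members: the homeobox genes HB-7 and HB-12 and the bZIP genes GBF3 and bZIP1. Of the other 11 in the table, 3 were called higher and 0 lower with NaCl after DPAM-1, 3 and 1 after coronatine, and 6 and 0 in DMSO. HB-7 (AT2G46680), known to be induced by water deficit and abscisic acid, had ratios of 4.28, 4.16 and 4.54 after DPAM-1, after coronatine and in DMSO. In HB-7, DPAM-1 libraries held 1789, 1197 and 1158 normalized counts with NaCl, against 322, 326 and 320.2 without NaCl. After coronatine, HB-7 held 3306, 2801 and 2551 with NaCl, against 745, 648 and 689.6 without NaCl. In DMSO, HB-7 stood at 812, 725 and 1651 with NaCl, against 217, 248 and 237 without NaCl. Levels with coronatine alone were near those of the lower DMSO libraries with NaCl. The counts of bZIP1 and AT5G49448 were identical in all 18 libraries, so these 2 members are 1 signal.

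Zinc finger and AP2/ERF genes gave 4 members, ZAT6, STZ, RAP2.6 and CEJ1, of 13 in the table and 24 listed, and the WRKY list gave WRKY40 of 5 in the table and 10 listed. Of the other 9 zinc finger and AP2/ERF genes, 4 were called higher and 2 lower with NaCl after DPAM-1, 5 and 3 after coronatine, and 7 and 0 in DMSO. Of the other 4 WRKY genes, 3 were called higher and 1 lower after DPAM-1, 3 and 1 after coronatine, and 4 and 0 in DMSO. ZAT6 (AT5G04340) had ratios of 2.28, 3.26 and 3.15, the jasmonate- and abscisic acid-responsive ERF gene RAP2.6 (AT1G43160) of 2.13, 2.86 and 2.63, and CEJ1 (AT3G50260) of 1.83, 1.95 and 2.89, each after DPAM-1, after coronatine and in DMSO.

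Redox, detoxification and sulfur genes formed a further group. The oxidative stress list had 20 of 21 genes in the table and 2 members, AOX1A, the alternative oxidase of plant mitochondria, and the glutathione transferase gene GSTU4. Of the other 18, 3 were called higher and 0 lower with NaCl after DPAM-1, 8 and 1 after coronatine, and 7 and 0 in DMSO. AOX1A (AT3G22370) had ratios of 3.8 after DPAM-1, 2.33 after coronatine and 4.11 in DMSO. In AOX1A, DPAM-1 libraries held 1260.0, 1086 and 1306 normalized counts with NaCl, against 286, 368 and 306 without NaCl. After coronatine, AOX1A held 662, 645 and 588 with NaCl, against 242, 271 and 302 without NaCl. In DMSO, AOX1A stood at 999, 1057 and 1612 with NaCl, against 315, 283 and 295 without NaCl. With NaCl, every coronatine library was below every DPAM-1 and DMSO library. Tau-class glutathione transferase genes numbered 4 among the 118, GSTU2, GSTU4, GSTU5 and GSTU9, and close copies of this family may share reads. Genes named for their response to low sulfur, LSU1, LSU3 and ATSDI1, had ratios of 1.82 to 2.9 after DPAM-1, 2.6 to 5.75 after coronatine and 2.59 to 4.85 in DMSO. These 2 groups were picked after their values had been seen. No count of all tau-class or low-sulfur genes in the table is given here, so the share of members in either group is not known.

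Several other pathways of the salt response gave no member. These were sodium, potassium and proton transport with 13 genes in the table, jasmonate signalling and synthesis with 16, sugar starvation and dormancy with 11, cuticle and suberin lipids with 6, and aquaporins with 12. Members were 0.829% of all genes, so most lists of this size would hold 0 at that share. The lack of members is thus not a result about these pathways. Jasmonate genes were called higher with NaCl at 6 of 16 after DPAM-1, 7 of 16 after coronatine and 11 of 16 in DMSO, and lower at 0 in each. Transport genes were called higher at 5, 5 and 4 of 13 and lower at 0, 2 and 2 of 13 after DPAM-1, after coronatine and in DMSO. Across all 18 lists, 224 of 307 listed genes were in the table and 35 of these were members, so that 83 of the 118 genes were in no list.

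The widest ranges of the 3 ratios were those of STZ, AT1G76600, BCS1 and AR781. The ratio after DPAM-1 was below that in DMSO for 83 of the 118 genes (49.3% of all genes) and above it for 35 (50.7%). Without replicate 3 of DMSO with NaCl, also a setting added after the data had been seen, these counts were 60 and 58. The median ratio of all genes was 1.00 after DPAM-1, 1.00 after coronatine and 0.999 in DMSO. Shares of all genes given here are thus not a like background for genes cut at 1.8 in each pretreatment. For the 105, 135 and 93 genes chosen without 1 replicate number and read in it, the median ratio was 2.84 after DPAM-1 and 2.48 in DMSO in the libraries numbered 1, 1.89 after DPAM-1 and 2.65 in DMSO in those numbered 2, and 2.59 after DPAM-1 and 3.86 in DMSO in those numbered 3. With all libraries, the ratio after DPAM-1 was under 0.5 times the DMSO ratio for 11 genes, against 0.555% of all genes, and over 2 times that ratio for 0, against 0.0351%. The 11 were STZ, AT3G10930, BCS1, AT1G76600, HSPRO2, WRKY40, AR781, AT4G24380, AT1G19020, ACS6 and AT3G20340. The ratio after coronatine was below that in DMSO for 66 genes (49.8% of all) and above it for 52 (50.2%), and without replicate 3 of DMSO with NaCl for 49 and 69. With all libraries it was under 0.5 times the DMSO ratio for 11 genes, against 0.9% of all, and over 2 times for 5, against 0.429%, namely HB-12, NAC019, DIP2, MSRB4 and AT2G28400. Without replicate 3 of DMSO with NaCl, 8 genes were over 2 times. Both comparisons share the DMSO libraries.

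STZ (AT1G27730), also known as ZAT10, encodes a zinc finger repressor named for salt tolerance, and its ratios were 1.84 after DPAM-1, 2.92 after coronatine and 10.5 in DMSO. In STZ, DPAM-1 libraries held 505, 565 and 549 normalized counts with NaCl, against 302, 327 and 250.4 without NaCl. After coronatine, STZ held 2152, 1791 and 2009.7 with NaCl, against 745, 658 and 637 without NaCl. In DMSO, STZ stood at 1063, 1381 and 1248 with NaCl, against 95.6, 159 and 97.9 without NaCl. Without NaCl the DPAM-1 and coronatine libraries lay above every DMSO library, and with NaCl the DPAM-1 libraries lay below every DMSO library. The NaCl effect after DPAM-1 minus that in DMSO was -2.49 ± 0.21 (SE, 95% interval -2.92 to -2.07) on the log2 scale, and after coronatine minus that in DMSO -1.84 ± 0.20 (SE, 95% interval -2.25 to -1.43). BCS1 (AT3G50930), an AAA-ATPase gene of mitochondria, likewise had DPAM-1 and coronatine libraries above every DMSO library without NaCl. In BCS1, DPAM-1 libraries held 556, 497 and 573 normalized counts with NaCl, against 251, 218 and 195 without NaCl. After coronatine, BCS1 held 701, 473 and 647 with NaCl, against 326, 232 and 386 without NaCl. In DMSO, BCS1 stood at 579, 852 and 758 with NaCl, against 80.2, 88.9 and 101 without NaCl. With NaCl the 3 DPAM-1 libraries were below each DMSO library. The difference in NaCl effect was -1.70 ± 0.26 (SE, 95% interval -2.24 to -1.17) for DPAM-1 and -2.04 ± 0.25 (SE, 95% interval -2.57 to -1.52) for coronatine, each against DMSO. STZ and BCS1 were among the genes named for the widest ranges of these same ratios. The intervals of both genes take no account of that choice, so they are descriptions and not tests.

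WRKY40 (AT1G80840), a WRKY repressor of defence and abscisic acid responses, had ratios of 2.08, 2.14 and 5.97 after DPAM-1, after coronatine and in DMSO. In WRKY40, DPAM-1 libraries held 217, 301 and 306 normalized counts with NaCl, against 116, 170.0 and 111 without NaCl. After coronatine, WRKY40 held 1188, 1058 and 1299 with NaCl, against 627, 481 and 546 without NaCl. In DMSO, WRKY40 stood at 325, 537 and 399.5 with NaCl, against 69.9, 67.2 and 74.2 without NaCl. Coronatine libraries were the highest in both NaCl states, and those without NaCl overlapped the DMSO libraries with NaCl. ACS6 (AT4G11280) encodes an enzyme that makes the precursor of ethylene, and its ratios were 2.29, 3.33 and 5.95 in the same order. In ACS6, DPAM-1 libraries held 312, 275 and 329.7 normalized counts with NaCl, against 135, 146 and 119 without NaCl. After coronatine, ACS6 held 260.5, 173 and 274 with NaCl, against 65.4, 78.1 and 69.1 without NaCl. In DMSO, ACS6 stood at 644, 663 and 572 with NaCl, against 84.3, 97.8 and 134 without NaCl. With NaCl, the DPAM-1 and coronatine libraries all lay below the DMSO libraries. The NaCl effect on ACS6 after DPAM-1 minus that in DMSO was -1.36 ± 0.24 (SE, 95% interval -1.86 to -0.87), and that on WRKY40 was -1.53 ± 0.28 (SE, 95% interval -2.10 to -0.96). Both genes were among those listed above for low ratios after DPAM-1 against DMSO. Their intervals are thus descriptions and not tests.

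AT1G76600 is an unnamed gene next to AT1G76590, which is also a member, and it had the largest ratio in DMSO, 14.5, against 4.47 after DPAM-1 and 3.39 after coronatine. In AT1G76600, DPAM-1 libraries held 387, 349.7 and 502 normalized counts with NaCl, against 94.8, 104 and 78.3 without NaCl. After coronatine, AT1G76600 held 439.7, 289.7 and 367 with NaCl, against 112, 109.5 and 102 without NaCl. In DMSO, AT1G76600 stood at 1405, 1101 and 760.4 with NaCl, against 88.4, 60.3 and 76.2 without NaCl. Without NaCl the coronatine libraries lay above the DMSO libraries and the DPAM-1 libraries overlapped both, and with NaCl the DMSO libraries were the highest. For AT2G41730 the ratio was 10.2 after DPAM-1, 2.88 after coronatine and 10.7 in DMSO. In AT2G41730, DPAM-1 libraries held 1134, 889 and 1159.7 normalized counts with NaCl, against 128, 79.0 and 105 without NaCl. After coronatine, AT2G41730 held 237, 142 and 243 with NaCl, against 75.3, 65.9 and 74.7 without NaCl. In DMSO, AT2G41730 stood at 952, 1036 and 1144 with NaCl, against 114, 106 and 74.2 without NaCl. The coronatine libraries with NaCl lay far below those of both other pretreatments with NaCl. AR781 (AT2G26530), a gene of unstated function, had ratios of 2.84, 1.99 and 7.99 after DPAM-1, after coronatine and in DMSO. At the other end, the ratios of AT3G22600, of the lipid transfer protein family, were 1.86, 1.87 and 1.87, the narrowest spread of all.

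HB-12 (AT3G61890), the close relative of HB-7, and NAC019 (AT1G52890), a NAC factor gene of jasmonate and abscisic acid responses, had larger ratios after coronatine. In HB-12, DPAM-1 libraries held 351, 361 and 331 normalized counts with NaCl, against 109, 147 and 103 without NaCl. After coronatine, HB-12 held 1215, 902 and 890.4 with NaCl, against 122, 118 and 107 without NaCl. In DMSO, HB-12 stood at 143, 144 and 369 with NaCl, against 108, 114 and 59.7 without NaCl. The coronatine libraries with NaCl stood above all others, while those without NaCl were in the range of the DPAM-1 libraries. In DMSO with NaCl, replicate 3 was more than 2 times each of the others. In NAC019, DPAM-1 libraries held 238, 368 and 105 normalized counts with NaCl, against 76.1, 157 and 69.0 without NaCl. After coronatine, NAC019 held 3803, 3210.0 and 2932 with NaCl, against 503, 645 and 635 without NaCl. In DMSO, NAC019 stood at 159, 82.7 and 227 with NaCl, against 82.2, 57.3 and 72.1 without NaCl. NAC019 was higher with coronatine in both states, and its DPAM-1 groups overlapped. The NaCl effect after coronatine minus that in DMSO was 1.90 ± 0.39 (SE, 95% interval 1.09 to 2.71) for HB-12 and 1.33 ± 0.47 (SE, 95% interval 0.36 to 2.29) for NAC019 on the log2 scale. For DIP2 it was 1.30 ± 0.39 (SE, 95% interval 0.48 to 2.12). HB-12, NAC019 and DIP2 were among the genes listed above for high ratios after coronatine against DMSO. Their intervals are thus descriptions and not tests.

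**Figure D4:**
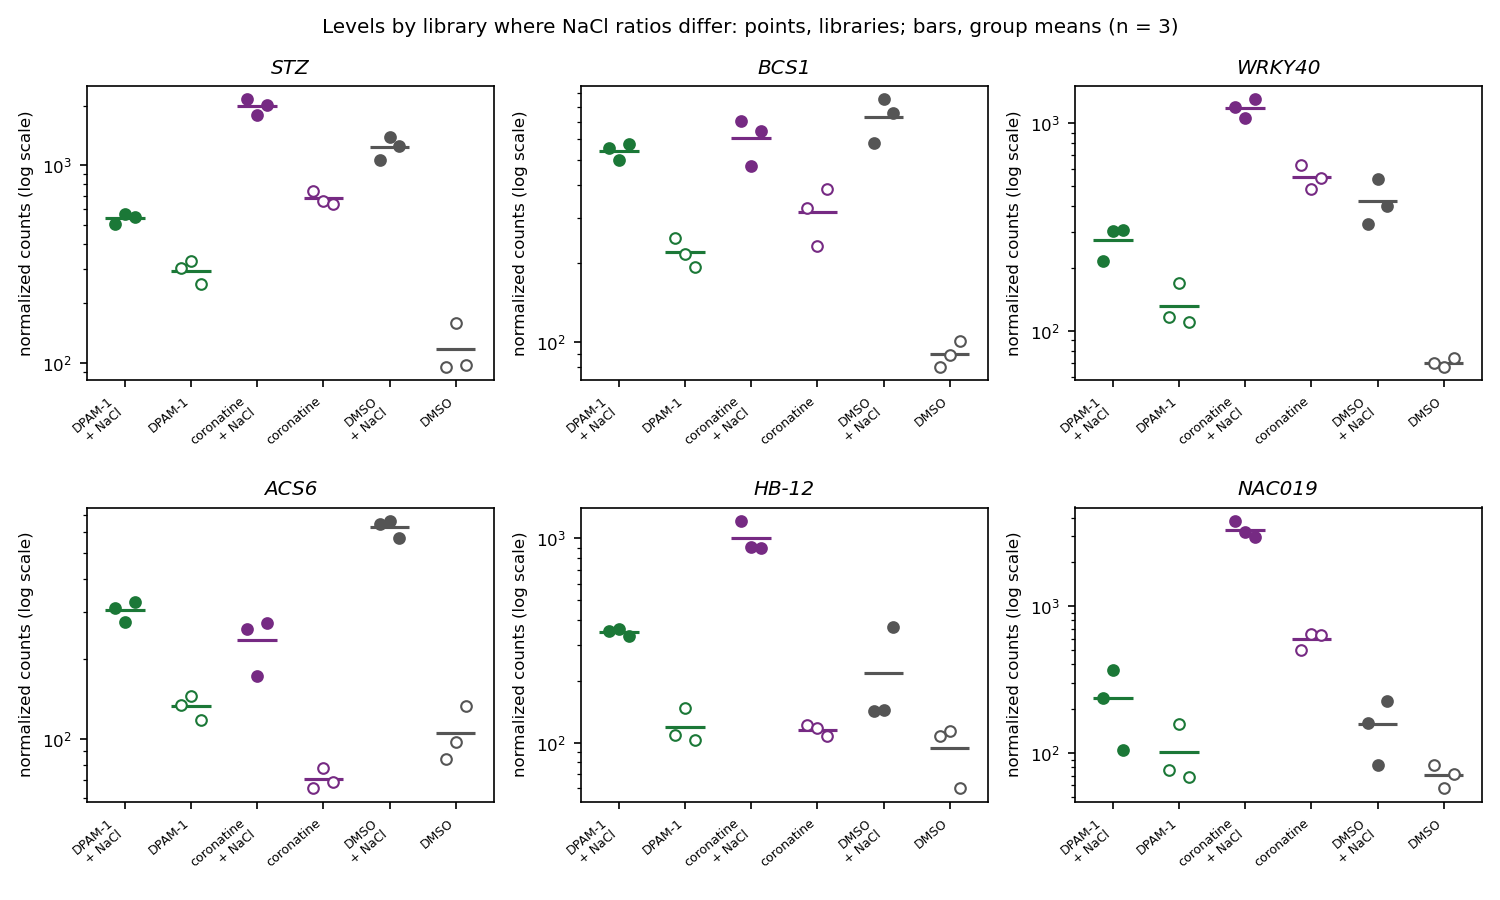
Normalized counts per library (vertical axis, log scale) of STZ, BCS1, WRKY40, ACS6, HB-12 and NAC019 in the 6 groups; filled points are libraries with NaCl, open points libraries without, and bars are group means (n = 3). STZ, BCS1, WRKY40 and ACS6 have a smaller step from open to filled points after DPAM-1 than in DMSO, and HB-12 and NAC019 a larger one after coronatine.

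The overall height of a gene under a compound, taken as the mean of its NaCl and no NaCl groups on the log2 scale, was not itself a criterion of the rule and was tested, although it comes from the same 6 group means. The choice of the genes can bear on it where the groups of a pair differ in spread: the median log2 distance of the 118 genes from their group mean was -0.20, -0.15 and 0.27 in the 3 libraries of DMSO with NaCl, and 0.01, -0.02 and -0.03 in those of DMSO alone. DPAM-1 against DMSO called 10 of the 118 genes in edgeR's quasi-likelihood test at an adjusted p under 0.05 over all genes. Of them 9 were higher with DPAM-1, where 1.45% of all genes were, and 1 was lower, where 0.878% were. The median log2 fold change of the 118 was 0.11. Without replicate 3 of the DMSO group with NaCl, 25 were called (23 higher and 2 lower), against 2.8% of all genes, and the median was 0.19. Without replicate 1 of the DPAM-1 group with NaCl 6 were called. The average can join opposite values of the NaCl states. For STZ, DPAM-1 minus DMSO was 1.30 without NaCl (95% interval 0.97 to 1.63) and -1.19 with NaCl (95% interval -1.47 to -0.92). For AR781 it was 0.74 and -0.73. Both genes were named for wide ranges of ratios. A gene not called here may thus still differ within a NaCl state.

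COR15A (AT2G42540), a chloroplast protein that guards membranes during freezing, was the highest of the 9. In COR15A, DPAM-1 libraries held 669, 483 and 686 normalized counts with NaCl, against 174, 273 and 205 without NaCl. After coronatine, COR15A held 1228, 859.7 and 897 with NaCl, against 272, 337 and 245 without NaCl. In DMSO, COR15A stood at 320.1, 215 and 348 with NaCl, against 162, 150.2 and 113 without NaCl. The DPAM-1 libraries lay above every DMSO library in each NaCl state, and the averaged log2 fold change was 0.83 ± 0.14 (SE), with an adjusted p of 0.00235. GSTU4 was higher by 0.79 ± 0.15 (SE, adjusted p = 0.00515) and AT1G19020 by 0.65 ± 0.14 (SE, adjusted p = 0.0112). The average for AT1G19020 joined 1.35 without NaCl (95% interval 0.91 to 1.79) and -0.05 with NaCl (95% interval -0.41 to 0.32). KIN2 was higher by 0.40 ± 0.08 (SE, adjusted p = 0.00515), and PSK5, which encodes a precursor of the growth peptide phytosulfokine, by 0.43 ± 0.08 (SE, adjusted p = 0.00317). These 5 calls, and the 1 lower call described next, held with each library left out and under the other scalings, filters, the replicate block and DESeq2, but KIN2, PSK5 and EXPA1 fell short where a log2 fold change of at least 0.5 was also required. The calls of RHA3B, BCB, KIN1 and AT1G17830, higher by 0.57, 0.57, 0.54 and 0.48, did not. RHA3B lost its call without replicate 1 of DMSO, 1 of DMSO with NaCl, 3 of DPAM-1 or 1 of DPAM-1 with NaCl (adjusted p 0.0728 to 0.0962). BCB lost it without replicate 1 or 3 of DMSO, 1 or 2 of DMSO with NaCl, 1 or 2 of DPAM-1, or 1 or 2 of DPAM-1 with NaCl (0.0537 to 0.0844). For KIN1 this held for replicate 2 or 3 of DMSO, 1 or 2 of DMSO with NaCl, 1 or 2 of DPAM-1, and any library of DPAM-1 or coronatine with NaCl (0.0538 to 0.125). For AT1G17830 it held for replicate 1 of DMSO, 2 of DMSO with NaCl, 2 or 3 of DPAM-1, and 1 or 2 of DPAM-1 with NaCl (0.0574 to 0.0903). The 1 gene lower with DPAM-1 was EXPA1 (AT1G69530), an expansin of growing tissue. In EXPA1, DPAM-1 libraries held 4096, 5507 and 4909 normalized counts with NaCl, against 1066, 1202 and 1139.7 without NaCl. After coronatine, EXPA1 held 3613, 3194 and 3321 with NaCl, against 1209.7, 1409 and 1409 without NaCl. In DMSO, EXPA1 stood at 4992, 6218 and 6101 with NaCl, against 1793, 1564 and 1649 without NaCl. The DPAM-1 libraries without NaCl were below every DMSO library without it, those with NaCl overlapped, and the averaged log2 fold change was -0.41 ± 0.07 (SE, adjusted p = 0.00277).

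In group means, DPAM-1 alone was at least 2-fold above DMSO for 4 of the 118 genes (0.197% of all genes) and 2-fold below it for 0 (0.00703% of all). The 4 were AT1G19020, STZ, BCS1 and GSTU4. With NaCl, the DPAM-1 mean was at least 2-fold above the DMSO mean for 1 gene, COR15A (0.0351% of all), and 2-fold below it for 4, HSPRO2, AT1G76600, STZ and ACS6 (0.218% of all).

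**Figure D5:**
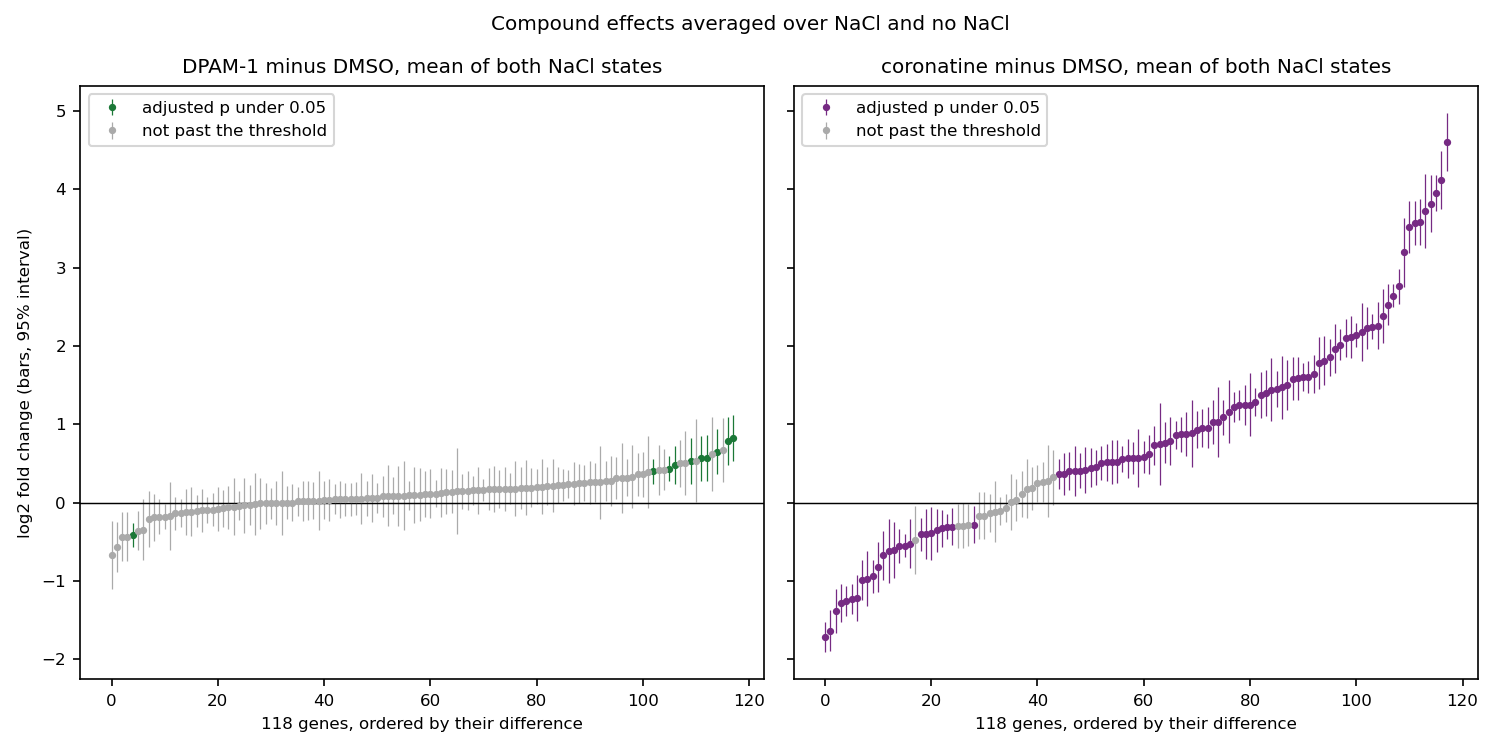
Averaged log2 fold changes of the 118 genes (vertical axis; bars, 95% interval) for DPAM-1 minus DMSO (left) and coronatine minus DMSO (right), in order of size along the horizontal axis; coloured points passed an adjusted p under 0.05. DPAM-1 values lie between -0.66 and 0.83, and coronatine values between -1.72 and 4.61.

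Most of the salt-raised genes differed in height between coronatine and DMSO. Against DMSO, averaged over NaCl, 99 of the 118 passed the same test, 74 higher and 25 lower, where 26.6% of all genes were higher and 27.3% lower. The median log2 fold change of the 118 was 0.57 and that of all genes -0.02. With library totals as the only scaling, a setting added after the data had been seen, the split was 61 higher and 34 lower and the median of all genes -0.30. The sum of the 11 root markers was higher with coronatine, as given above, and 4 of those genes were called higher and 6 lower. Without PYK10 the other 10 summed to 5863 to 6135 with coronatine alone, against 5256 to 5651 with DMSO alone. With NaCl these sums were 4712 to 5373 after coronatine and 6283 to 7331 in DMSO. The part of the root markers in these results was not tested. In group means, coronatine alone was at least 2-fold above DMSO for 46 genes (6.26% of all) and below it for 6 (3.03% of all), and with NaCl for 46 (6.76%) and 9 (4.88%).

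FAMT (AT3G44860), annotated as a farnesoic acid methyltransferase, was the highest with coronatine. In FAMT, DPAM-1 libraries held 695, 858 and 447 normalized counts with NaCl, against 227, 579.9 and 259.7 without NaCl. After coronatine, FAMT held 13999, 13906 and 15590.4 with NaCl, against 7909, 7420.5 and 7041 without NaCl. In DMSO, FAMT stood at 454, 712 and 660.1 with NaCl, against 305, 303 and 289 without NaCl. The coronatine libraries lay far above every other library, the DPAM-1 groups overlapped through replicate 2 without NaCl, and the averaged log2 fold change against DMSO was 4.61 ± 0.18 (SE, adjusted p = 1.90e-16). The sulfur-response gene ATSDI1 (AT5G48850) followed. In ATSDI1, DPAM-1 libraries held 316, 417 and 356 normalized counts with NaCl, against 162, 311 and 124 without NaCl. After coronatine, ATSDI1 held 10431, 8946 and 8257 with NaCl, against 2099.6, 2861 and 1244 without NaCl. In DMSO, ATSDI1 stood at 405, 382 and 419 with NaCl, against 154, 160.1 and 151 without NaCl. Its averaged log2 fold change was 4.12 ± 0.18 (SE, adjusted p = 1.77e-15), and that of LSU3 was 3.82 ± 0.18 (SE, adjusted p = 5.16e-15). AT2G22200, annotated as an integrase-type DNA-binding protein, was higher by 3.95 ± 0.11 (SE, adjusted p = 4.78e-19).

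Genes of 1 role did not all move one way with coronatine. Against 26.6% of all genes higher and 27.3% lower, 11 of the 22 abscisic acid signalling genes in the table were called higher and 4 lower, and of the 7 members among them 6 were higher and 0 lower; AFP3 was higher by 1.82 ± 0.15 (SE), AFP1 by 1.48 ± 0.19 (SE) and ABI1 by 1.23 ± 0.09 (SE), while ABF3 differed by 0.03 ± 0.13 (SE, adjusted p = 0.846). Of the 16 protective protein genes in the table, 4 were called higher and 10 lower, and of the 8 members 4 were higher and 4 lower. The 4 higher were RD20 by 3.20 ± 0.21 (SE), KIN1 by 2.26 ± 0.14 (SE), KIN2 by 2.25 ± 0.08 (SE) and COR15A by 1.38 ± 0.14 (SE). The 4 lower were COR47 at -1.72 ± 0.09 (SE), ERD10 at -1.26 ± 0.09 (SE), LTI30 at -1.21 ± 0.14 (SE) and LTI78 at -0.67 ± 0.15 (SE). Of the 11 NAC genes in the table, 5 were higher and 1 lower, and of the 5 members 3 were higher, with NAC019 at 3.72 ± 0.23 (SE) and RD26 at 2.39 ± 0.17 (SE), and NAC102 was lower at -0.31 ± 0.08 (SE). The average for NAC102 joined 0.03 without NaCl (95% interval -0.20 to 0.26) and -0.64 with NaCl (95% interval -0.86 to -0.42). ATAF1 did not pass, at 0.25 ± 0.11 (SE, adjusted p = 0.0676).

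Among the remaining transcription factor genes, RAP2.6 was higher by 2.76 ± 0.11 (SE), WRKY40 by 2.23 ± 0.13 (SE) and STZ by 1.61 ± 0.10 (SE), and CEJ1 was lower at -0.82 ± 0.15 (SE). The average for STZ joined 2.53 without NaCl (95% interval 2.21 to 2.84) and 0.69 with NaCl (95% interval 0.43 to 0.95). CYP707A1 was higher by 2.53 ± 0.13 (SE), P5CS1 by 0.57 ± 0.18 (SE) and EXPA10 by 1.09 ± 0.11 (SE). AOX1A was lower at -0.55 ± 0.10 (SE), ACS6 at -0.99 ± 0.12 (SE) and EXPA1 at -0.55 ± 0.07 (SE). These averages can join unlike NaCl states. That for AOX1A joined -0.15 without NaCl (95% interval -0.46 to 0.17) and -0.95 with NaCl (95% interval -1.24 to -0.67). GSTU9 and AT2G41730 were the lowest beside COR47, at -1.63 ± 0.13 (SE, adjusted p = 1.04e-10) and -1.38 ± 0.14 (SE, adjusted p = 8.24e-09). The average for AT2G41730 joined -0.45 without NaCl (95% interval -0.90 to 0.002) and -2.31 with NaCl (95% interval -2.66 to -1.96). GSTU5, by contrast, was higher by 2.65 ± 0.07 (SE, adjusted p = 3.14e-19), and NSP5, a nitrile specifier of glucosinolate breakdown, by 1.29 ± 0.09 (SE, adjusted p = 9.02e-12).

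DPAM-1 against coronatine, at the same 5 µM, averaged over NaCl, called 94 of the 118 genes, 25 higher and 69 lower with DPAM-1, where 24.7% of all genes were higher and 24.7% lower. The median log2 fold change was -0.50. FAMT at -4.41 ± 0.18 (SE), ATSDI1 at -4.03 ± 0.18 (SE) and LSU3 at -3.82 ± 0.18 (SE) were the lowest with DPAM-1, and COR47 at 1.74 ± 0.09 (SE), GSTU9 at 1.66 ± 0.13 (SE) and LTI30 at 1.58 ± 0.14 (SE) the highest. COR15A was lower with DPAM-1 than with coronatine, at -0.55 ± 0.13 (SE, adjusted p = 0.00168). EXPA1 differed by 0.14 ± 0.07 (SE, 95% interval -0.01 to 0.29) and ABF3 by 0.14 ± 0.13 (SE, 95% interval -0.13 to 0.41), and neither passed the test.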

How the data were processed

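RNA was sequenced by Lasy-Seq v1.1, which reads transcripts from their 3′ ends, so that levels were compared within a gene and not between genes. Per the submitters' processing notes bcl2fastq, Trimmomatic, HISAT2, featureCounts and DESeq2 were used with TAIR10; versions, settings and use of strand are not given in the sources used here. The authors deposited raw counts of reads per gene, and a second table in the unit signal, the deposited normalized counts, each value being a count over its library's single factor. The second table gave the rule's ratios and the values per library, and the counts gave every test. Reads carry no molecular identifiers here, so they are not independent molecules.

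Counts were fitted with edgeR 4.0.16 in R 4.3.3 (TMM factors 0.847 to 1.13, a mean per group, all 18 libraries, quasi-likelihood test). The main fit used no expression filter, and edgeR's own filter, run as an alternative, removed 0 genes. The biological coefficient of variation was 10.4%, and p-values were two-sided and Benjamini-Hochberg adjusted over 14229 genes. The procedure was run on simulated counts with a coronatine shift in some genes, no NaCl effect and no choice of genes by the rule. That run thus cannot show how averaged effects behave for genes chosen by their NaCl ratios. Compound effects were averaged over NaCl and no NaCl, and use the group means that also chose the genes; they are uncorrelated with the ratios only where groups vary alike. Names, products, positions and promoters came from RefSeq's TAIR10.1 annotation by locus tag (14105 genes matched, 117 of the 118, 71 with a symbol). Of the 118 genes, 25 overlap a gene on the opposite strand.

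The members and the gene lists were chosen with earlier results of these data known. Genes were named by a rule: the 12 highest by geometric mean ratio, the 5 highest in level, up to 4 per list, the 4 highest and 4 lowest called per averaged comparison, the 4 widest and 2 narrowest ranges of ratios, and the 3 nearest each side of the threshold. Other members named complete a count or were picked after their values had been seen. Alternatives were RLE and upper-quartile factors, library totals, edgeR's expression filter, a mean count of at least 100 and a log2 fold change of at least 0.5. Further ones were DESeq2 1.42.0, a replicate block, other ratios and thresholds, and each library left out.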

Additional observations from a re-analysis of the deposited data

How the results depend on the processing

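A required ratio of 1.5 chose 260 genes, 2 chose 75 and 3 chose 17, and leaving out each library in turn gave 106 to 125. CPM by library totals chose 103, with TMM 118, and geometric means 116. For DPAM-1 against DMSO, requiring a log2 fold change of at least 0.5 left 6 called genes, and leaving out each library gave 6 (without replicate 1 of DPAM-1 with NaCl) to 25 (without replicate 3 of DMSO with NaCl). Leaving out each library gave 94 to 101 called genes for coronatine against DMSO and 85 to 96 for DPAM-1 against coronatine. DESeq2 called 12, 99 and 95 in the 3 comparisons. Upper-quartile factors split coronatine against DMSO into 70 higher and 31 lower (median of all genes -0.16) and DPAM-1 against coronatine into 29 and 59 (0.11), library totals the second into 31 and 54 (0.25). Of 650 values of named genes under alternatives, 615 kept direction and call and 35 kept the direction with an adjusted p over 0.05, all for DPAM-1 against DMSO in RHA3B (up to 0.0962), AT1G17830 (up to 0.0903), KIN1 (up to 0.125, and 0.0579 in DESeq2) and BCB (up to 0.0844); the cause was not tested. With the replicate number as a block, 11, 100 and 94 genes were called; the labels do not say that equal numbers belong together, the deviations of same-numbered libraries correlated at -0.154 to 0.496 (over 0.1 in 3 of 45 pairs), and 6 of 18 libraries correlated best with their own number, so the numbers were not taken as pairs.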
